A study of Caenorhabditis elegans with 2 samples.

Results

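The optimal list of ZTF-26 peaks held 1929 peaks, of which 463 lay on the X chromosome. After removal of the 104 X peaks whose summit lay within 100 bp of a tRNA gene, 359 X peaks remained, and these are described here. Within the ce11 optimal list, which was itself cut by signal, they were chosen by position alone. Each had its summit on X, more than 100 bp from every annotated tRNA gene. They are set beside the 4287 lower-ranked candidates of the pooled list on X and the 1360 optimal peaks on the autosomes, both under the same tRNA rule, with the 21785 autosomal lower-ranked candidates as the background of the latter.

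ZTF-26, a zinc finger protein, was mapped by chromatin immunoprecipitation and sequencing with an anti-GFP antibody in whole young adults of Caenorhabditis elegans. The worms were of strain OP565, genotype unc-119(tm4063) III; wgIs565, which is 1 transgenic line that carries ZTF-26 with a GFP-FLAG tag at its C terminus. Males and females were pooled, 56 hours after starved L1 larvae had been synchronized. Biological replicates 3 and 4 form 1 group, and a control library, an untagged line and the read depth of the libraries were not analysed here.

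In C. elegans, animals with a pair of X chromosomes lower the expression of X-linked genes through a dosage compensation complex related to condensin. This complex is known to load onto X at recruitment sites that hold copies of a GC-rich sequence, the MEX motif, and to spread from there along the chromosome. The gene xol-1 acts at the top of this pathway as the switch between male and hermaphrodite fates, and the product of sdc-2 brings the complex to X. E-box sequences are the usual targets of basic helix-loop-helix (bHLH) proteins.

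The strongest X peaks carried a GC-rich word at or near the summit that also forms the core of the MEX motif. The words counted as MEX cores were CGCAGGG, the shifted word GCGCAGG and the longer word CGCGCAGGG, the last with up to 1 mismatch. They were read on both strands and overlap each other. A further word, CGAAGGG, came out of a test of every word of 7 bases and is called the second X word. The sequences of 50 bp on each side of the summit are shown for 7 of the 9 strongest X peaks, the ones that hold both kinds of word. They are from the plus strand of the RefSeq reference sequence of ce11, with MEX core words and the second X word in capitals.
W02H3.3 peak: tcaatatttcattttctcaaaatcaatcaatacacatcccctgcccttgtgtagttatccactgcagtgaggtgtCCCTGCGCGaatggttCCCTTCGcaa
mom-1 peak: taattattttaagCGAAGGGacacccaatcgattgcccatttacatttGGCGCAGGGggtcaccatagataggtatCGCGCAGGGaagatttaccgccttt
nspc-17 peak: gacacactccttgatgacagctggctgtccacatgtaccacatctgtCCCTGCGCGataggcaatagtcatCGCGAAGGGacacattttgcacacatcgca
xol-1 peak: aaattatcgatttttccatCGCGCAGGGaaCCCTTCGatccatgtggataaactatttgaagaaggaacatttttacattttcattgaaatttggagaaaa
F20B6.9 peak: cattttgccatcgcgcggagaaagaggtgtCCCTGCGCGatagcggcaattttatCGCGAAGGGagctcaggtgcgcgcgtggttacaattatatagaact
pks-1 peak: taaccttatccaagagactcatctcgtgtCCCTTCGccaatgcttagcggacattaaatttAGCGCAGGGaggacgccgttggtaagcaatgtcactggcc
Y41G9A.17 peak: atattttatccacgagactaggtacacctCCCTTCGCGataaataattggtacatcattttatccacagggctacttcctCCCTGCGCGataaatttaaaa

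These 7 windows lie on chromosome X of ce11, in the order shown, at chrX:11094151-11094251, chrX:6296499-6296599, chrX:14525853-14525953, chrX:8036415-8036515, chrX:4209236-4209336, chrX:5429528-5429628 and chrX:2997043-2997143. Of the 7, the nspc-17 peak alone had its summit in a promoter window. The nearest protein-coding 5′ end was 722 bp away for nspc-17, which encodes a short nematode-specific peptide, and 1801 bp or more away for the other 6. The peak upstream of xol-1 had its summit 4848 bp from the 5′ end of that gene and 220 bp from a tRNA gene, which makes it the second nearest of all 359 X peaks to a tRNA gene. The mom-1 peak lay in an intron of mom-1, which encodes the enzyme that attaches a lipid to Wnt proteins, and the pks-1 peak lay in a coding exon of the polyketide synthase gene pks-1.

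Signal, the authors' value for each peak, was high at these sites in both replicates. The sites were taken from the top of the pooled ranking, which rests on both replicates. High values in each are thus in large part set by that choice. The W02H3.3 peak had a pooled signal of 948, with 570 in replicate 3 and 386 in replicate 4. The mom-1 peak had 925 pooled, 588 in replicate 3 and 341 in replicate 4. The nspc-17 peak had 908 pooled, 566 in replicate 3 and 341 in replicate 4. These were the 3 strongest X peaks in the pooled list, and they held ranks 2, 3 and 4 in the whole optimal list. At the xol-1 peak the values were 797 pooled, 498 in replicate 3 and 296 in replicate 4. The F20B6.9 peak had 767, 464 and 310, the pks-1 peak 753, 469 and 284, and the Y41G9A.17 peak 713, 438 and 274, in the same order. All 7 sites stood above 400 in replicate 3, against a median of 89.8 over the X peaks there, and above 250 in replicate 4, against a median of 51.8 over the 358 X peaks that had a candidate in that replicate.

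The other 3 of the 10 strongest X peaks show where the pattern thins out. The peak near K02D3.1, at chrX:13700819-13700919, and the peak near ZK899.6, at chrX:9465813-9465913, held the second X word alone, and the peak near F19H6.5, at chrX:12363105-12363205, held neither kind.
K02D3.1 peak: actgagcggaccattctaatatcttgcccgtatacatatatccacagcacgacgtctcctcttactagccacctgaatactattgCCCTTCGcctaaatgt
ZK899.6 peak: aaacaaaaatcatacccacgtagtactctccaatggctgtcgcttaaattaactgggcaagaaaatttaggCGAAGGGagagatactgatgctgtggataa
F19H6.5 peak: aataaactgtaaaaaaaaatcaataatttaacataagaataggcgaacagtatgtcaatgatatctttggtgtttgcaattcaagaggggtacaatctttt

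Their signals were below those of the W02H3.3, mom-1, nspc-17 and xol-1 peaks and close to those of the other sites shown that hold both words. The K02D3.1 peak had 782 pooled, 505 in replicate 3 and 277 in replicate 4. The ZK899.6 peak had 745, 472 and 269, and the F19H6.5 peak 713, 447 and 279. Over the whole called interval, rather than the window at its summit, 18 of the 20 strongest X peaks held a MEX core word or the second X word, and 2 of the 20 strongest autosomal peaks did. Of all 359 X peaks, 62 held either kind in the whole interval.

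Carriers of these words were gathered at the top of the X ranking. Of the 20 strongest X peaks, with signals from 470 to 948, 13 held a MEX core word at the summit, 10 held the second X word and 15 held at least 1 of both kinds. Of the next 30 peaks, 2 held a MEX core word. Further down, 2 of 50 (4%), 5 of 100 (5%) and 6 of the last 159 (3.77%) did. On the autosomes, 1 of the 20 strongest peaks held a MEX core word, 0 of the next 30 did, and below them the share stayed between 2.67% and 8%. The ranks themselves come from the signal that chose the optimal list, so this is a description and no test was made of it.

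**Figure D1:**
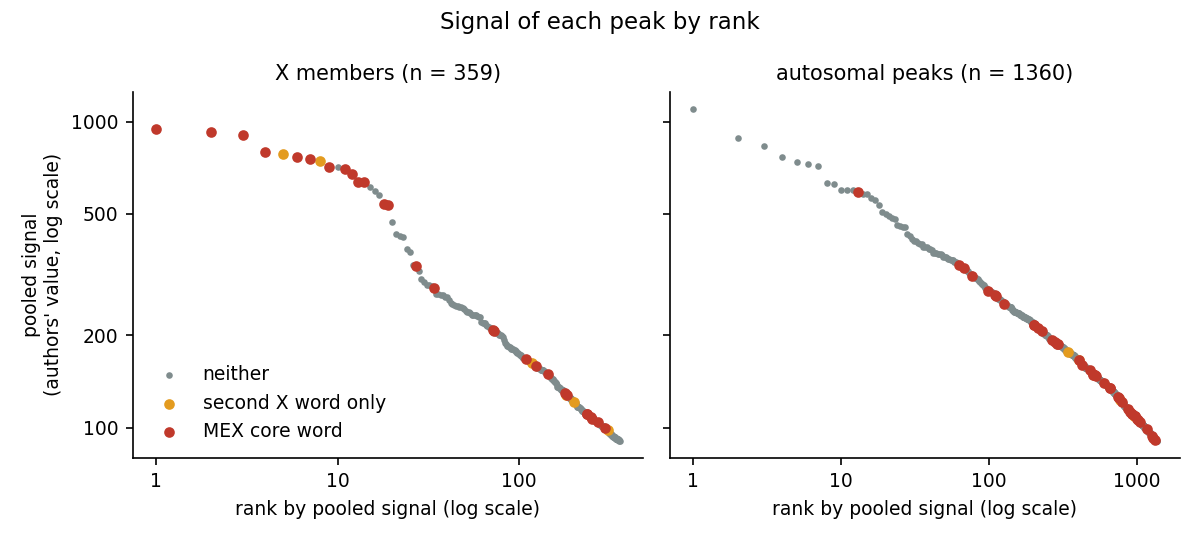
Pooled signal (log scale) of each X peak and each autosomal peak away from tRNA genes against its rank (log scale). Red points hold a MEX core word, orange points the second X word alone, grey points neither. Of the 20 strongest X peaks, from a signal of 470 up, 15 are coloured, and of the 20 strongest autosomal peaks 1 is.

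Very strong peaks made up more of the X set than of the autosomal set. Signals above 500 were listed for 19 of 359 X peaks (5.29%) and for 20 of 1360 autosomal peaks (1.47%). In replicate 3, signals above 300 were listed for 25 X peaks (6.96%) and 30 autosomal peaks (2.21%), and in replicate 4 for 5 X peaks (1.4%) and 2 autosomal peaks (0.147%). Peaks that share an interval carry the same replicate value, so 1 site can count more than once in these replicate counts. Intervals with several summits held 3.62% of X peaks and 1.76% of autosomal peaks. The median signal was 130 for X and 133 for the autosomes. Among the 25 strongest peaks away from tRNA genes in the genome, 15 were on X (60%). The share fell to 28% in the top 100 and 20.9% over all 1719, while X makes up 17.7% of the genome.

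**Figure D2:**
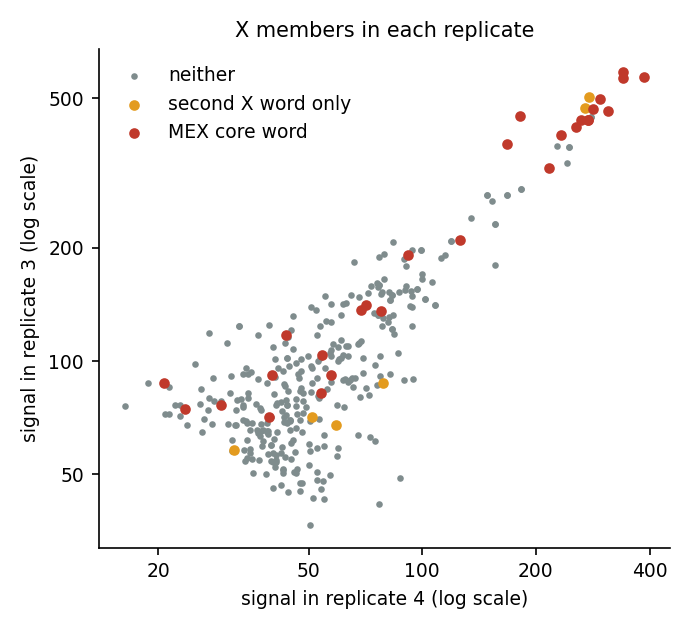
Signal of each X peak in replicate 3 against replicate 4 (both log scales), 358 peaks with a candidate in both, coloured by the word at the summit. The strongest coloured points sit in the upper right corner, high in both replicates, and others lie among the grey points. Peaks that share an interval carry the value of the strongest candidate there.

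The optimal list was derived from the lists of both replicates, so a high rank in each is in large part set by how the peaks were chosen. Both replicates' own top lists, of 1929 peaks each, held 245 of the 359 X peaks (68.2%) and 956 of the 1360 autosomal peaks (70.3%). Fisher's exact test, two-sided, gave p = 0.477 for an odds ratio of 0.908. The signal in replicate 3 was a median of 1.71 times that in replicate 4 on X and 1.74 times on the autosomes. Of the 28 X peaks with a MEX core word, 25 were in both top lists (89.3%), and of the other 331 X peaks 220 were (66.5%), which did not pass after adjustment (Fisher's exact test, adjusted over 32 tests, p = 0.154). Carriers of the E-box core had 86.7%. Peaks are not replicates, and each p-value on shares of peaks given here covers counting error between peak sets in these libraries, not the variation between worm cultures.

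MEX core words were more frequent at X peaks than at weaker X candidates, and more frequent than at autosomal peaks of the same list. Any of the 3 words was found at 28 X peaks (7.8%), 1.33% of X candidates and 3.09% of autosomal peaks. CGCAGGG was found at 19 of 359 X peaks (5.29%, 95% exact interval 3.22 to 8.14), 15 of 4287 X candidates (0.35%) and 13 of 1360 autosomal peaks (0.956%). The odds ratio was 15.9 against the X candidates (Fisher's exact test, adjusted over 14 words, p = 4.2e-12) and 5.79 against the autosomal peaks (adjusted exact p = 2.6e-05). GCGCAGG was also found at 19 X peaks, with odds ratios of 10.8 and 4.41 (adjusted exact p = 1.7e-10 and 9.1e-05). The longer CGCGCAGGG, with up to 1 mismatch, was found at 23 X peaks (6.41%), 0.91% of X candidates and 1.62% of autosomal peaks.

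The excess on X was also larger than the excess among autosomal peaks. For CGCAGGG the odds ratio of peaks against candidates on X was 4.61 times that on the autosomes (95% normal interval 1.88 to 11.3), and for GCGCAGG it was 3.28 times (1.47 to 7.34). Both passed after adjustment over 14 words, with p-values of 0.0119 and 0.0264. For the longer word it was 2.44 times, with an interval of 1.22 to 4.88 and an adjusted p of 0.0533. Both short words also passed against only the 359 strongest of the lower-ranked X candidates (odds ratio 3.96 and adjusted exact p = 0.0269 for each), and the longer word did not (odds ratio 2.17, adjusted exact p = 0.145). The words were centred on the summit. In windows of the same length 300 bp to the right, CGCAGGG was found at 1 of the same 359 peaks (exact McNemar test, adjusted p = 8.0e-05).

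**Figure D3:**
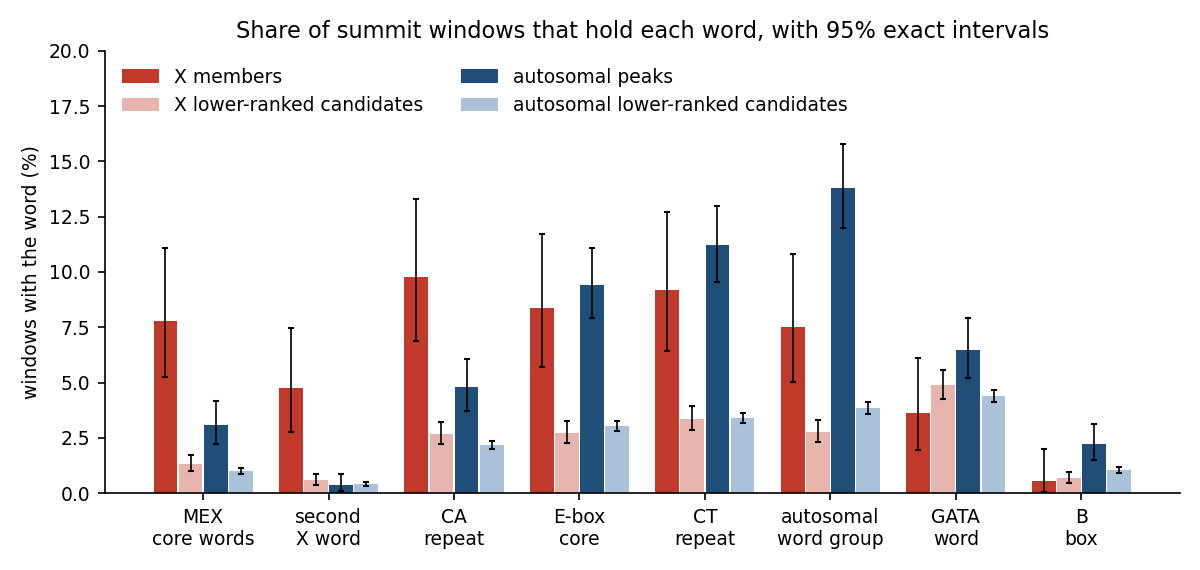
Share of summit windows (50 bp on each side) that hold each word, in percent, for X peaks (359), X lower-ranked candidates (4287), autosomal peaks (1360) and autosomal lower-ranked candidates (21785), with 95% exact intervals. The second X word is CGAAGGG, and the autosomal word group is GAGACGC with the overlapping words ACGCAGA and also CTGCGTC. X peaks exceed autosomal peaks for the MEX core words, the second X word and the CA repeat, have overlapping intervals with them for the E-box core and the CT repeat, and fall below them for the autosomal word group.

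The longest word was also counted from the side of the genome sequence, over all its exact copies. CGCGCAGGG occurs 33 times on X and 44 times on the autosomes. The summit of an X peak lay within 50 bp of 12 of the 33 copies on X (36.4%, 95% exact interval 20.4 to 54.9). No autosomal peak did so for the 44 autosomal copies (95% exact interval 0 to 8.04), and the difference passed (Fisher's exact test, adjusted over 6 words, p = 1.9e-05). Shorter words lay at a summit less often. CGCAGGG occurs about as densely on X (17 sites per Mb) as on the autosomes (16.1 sites per Mb), and 20 of 301 X sites (6.64%) against 13 of 1329 autosomal sites (0.978%) lay at a peak summit (odds ratio 7.21, adjusted exact p = 4.1e-07). For comparison, the E-box core CACGTG lay at a summit at 34 of 2466 X sites (1.38%) and 149 of 15261 autosomal sites (0.976%), which did not pass (adjusted exact p = 0.0821). GAGACGC, at 1.97% and 2.11%, did not pass either (adjusted exact p = 0.907). The CA repeat CACACAC lay at a summit at 41 of 2301 X sites (1.78%) and 73 of 9207 autosomal sites (0.793%). That difference passed (odds ratio 2.27, adjusted exact p = 1.2e-04), so in this count an excess on X was not confined to the MEX core words. Counted at the peaks, the excess of the CA repeat over the autosomal peaks did not pass under every alternative, as given below.

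Every word of 7 bases was then compared without a prior choice. Against the X candidates, 81 of 7361 tested words were more frequent at X peaks (1.1%) and 3 were less frequent (0.0408%) at an adjusted p of 0.05. CGCAGGG and GCGCAGG led the list. Against the autosomal peaks, 10 of 2832 tested words were more frequent on X (0.353%) and 2 less frequent (0.0706%). The second X word CGAAGGG led that comparison, at 17 of 359 X peaks (4.74%) and 5 of 1360 autosomal peaks (0.368%), with an odds ratio of 13.5 (Fisher's exact test, adjusted p = 5.2e-05). Among the others were the MEX core words CGCAGGG and GCGCAGG, and words that overlap a MEX core or the second X word, such as GCAGGGA at 5.01% against 0.735% and GCGAAGG at 4.18% against 0.588%. The 2 less frequent words were CTGCGTC and GAGACGC. With all peaks that hold a MEX core word left out, a choice made after the data were seen, no word passed in either direction against the autosomal peaks. That run could not test the MEX core words, which were removed with their peaks, or the second X word. The latter was left at 6 X peaks and at most 5 autosomal peaks, below the 20 windows a word needed to be tested.

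**Figure D4:**
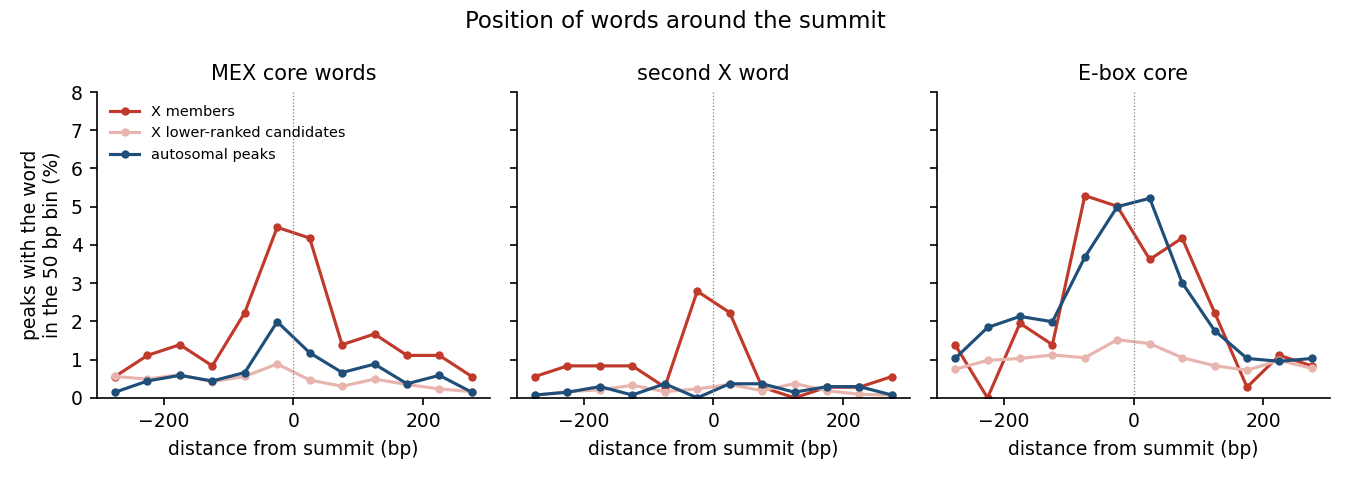
Percent of peaks with a word in each bin of 50 bp up to 300 bp on either side of the summit, for X peaks, X lower-ranked candidates and autosomal peaks. MEX core words reach 4.46% and 4.18% of X peaks in the bins next to the summit and the second X word 2.79% and 2.23%, while the E-box core reaches 5.01% of X peaks and 5% of autosomal peaks just left of the summit.

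Of the 34 X peaks with either kind of word, 11 held both, 17 a MEX core word alone and 6 the second X word alone. The kinds are not separate by definition, since CGCGAAGGG holds the second X word and matches the longer MEX core word with 1 mismatch. In 2 of the 11 that stretch was the only MEX core match, and the other 9 held another, so that 26 of the 28 carriers and 12 of the 13 among the 20 strongest peaks did not rest on it. The 28 carriers of a MEX core word had pooled signals from 100 to 948 with a median of 311, and the other 331 X peaks had a median of 126. In replicate 3 the medians were 268 and 87.4, and in replicate 4 they were 147 and 50.6, so carriers were higher in each replicate, although both groups spanned a wide range and overlapped. Of the 34, 8 (23.5%) had a summit in a promoter window, against 154 of 325 other X peaks (47.4%), and 24 of the 34 were intergenic. Their median distance to a protein-coding 5′ end was 1972 bp, against 856 bp for the other X peaks. Because the second X word was found in these peaks, the contrast over all 34 is given without a test. For the 28 carriers of a MEX core word alone it did not pass: 28.6% lay in a promoter window against 46.5% of the other X peaks (Fisher's exact test, adjusted over 32 tests, p = 0.306), and the adjusted permutation p for their distance was 0.154. Carriers of the E-box core had a similar promoter share, 30%.

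Below the top, carriers were scattered, and those near hlh-29, dpy-23 and col-185 were picked as examples after their values were seen. After rank 20 the next was the peak 36 bp upstream of hsp-3, which encodes the Hsp70 chaperone of the endoplasmic reticulum, with 337 pooled, 210 in replicate 3 and 126 in replicate 4. It matched the long word with 1 mismatch, inside a run that also holds 3 words of another group. The peak 4111 bp from the 5′ end of hlh-29, a bHLH gene, held both kinds of word, with 285, 192 and 91.6. Peaks near dpy-23, which encodes an adaptor subunit of endocytosis, and col-185, a collagen gene, held exact copies of both short words, with 209, 141 and 70.9 at the first and 207, 137 and 68.7 at the second. Whether any of these sites recruits the dosage compensation complex was not tested.

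Promoters made up less of the X set than of the autosomal set, on a background that differed in the same direction. A summit lay between 1000 bp upstream and 500 bp downstream of a protein-coding 5′ end for 162 of 359 X peaks (45.1%, 95% exact interval 39.9 to 50.4), 33.1% of X candidates and 55.7% of autosomal peaks. The odds ratio was 1.66 against the X candidates (Fisher's exact p = 7.4e-06) and 0.655 against the autosomal peaks (Fisher's exact p = 4.4e-04). The ratio of the odds ratios on X and on the autosomes was 0.828 (95% normal interval 0.649 to 1.06), which did not pass the threshold. It was 0.755 and past the threshold with replicate 4's top list in place of the optimal list. With a window from 2000 bp upstream the ratio was 0.754 and also past the threshold. Against the 359 strongest lower-ranked X candidates the promoter odds ratio was 1.0 (Fisher's exact p = 1).

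Most promoter peaks lay upstream. Of the 162, 142 had their summit upstream of the nearest 5′ end and 20 downstream, and their median distance from it was 281 bp. Over all X peaks the median distance was 1057 bp, against 1339 bp for X candidates (permutation test of set labels, p = 0.0128) and 645 bp for autosomal peaks (p = 2.0e-05). The difference from the X candidates did not pass in the permutation test with replicate 4's top list alone (170 bp nearer, p = 0.114) or under the stricter threshold, the upper part of the optimal list by signal (196 bp nearer, p = 0.219). X peaks lay more than 2000 bp from a 5′ end in 31.5% of cases, X candidates in 35.2% and autosomal peaks in 20.1%. Distances of the autosomal candidates are not given here. The difference in distance between X and autosomal peaks is therefore not set against its background.

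**Figure D5:**
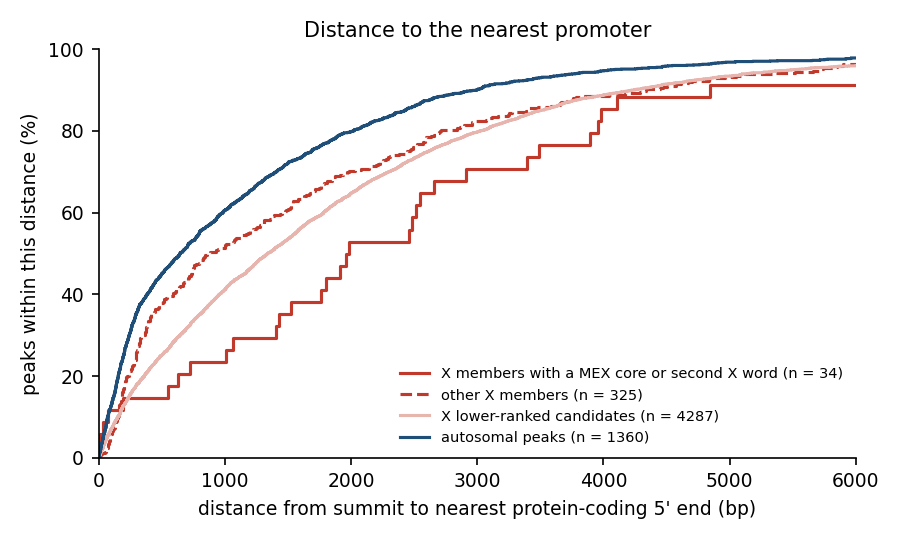
Cumulative share of peaks, in percent, within a given distance (bp) of the nearest protein-coding 5′ end. Beyond 1000 bp the curve of the 34 X peaks with a MEX core or second X word (median 1972 bp) runs below the other 3, and that of the other 325 X peaks (median 856 bp) runs below the autosomal peaks.

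By annotation, X peaks were mostly intergenic. A summit outside any gene was found for 221 X peaks (61.6%) and 36.7% of X candidates (odds ratio 2.76, adjusted exact p = 2.9e-19), and coding exons held 20 X peaks (5.57%) against 25.5% of candidates (odds ratio 0.172, adjusted exact p = 7.3e-21). Introns held 71 X peaks in 54 host genes (19.8% against 26.5%, adjusted exact p = 0.00764), and 3′ untranslated regions held 2 (0.557% against 3.27%, adjusted exact p = 0.00389). Non-coding RNA genes other than tRNA and snoRNA genes held 37 (10.3% against 4.57%, adjusted exact p = 5.6e-05). Under the stricter threshold 2 of these 5 features passed, coding exons and intergenic sequence, and against the 359 strongest candidates 3 did.

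A snoRNA gene, which encodes a guide for rRNA modification, lay within 100 bp of 2 X peaks (0.557%) and 70 autosomal peaks (5.15%), and this passed (adjusted exact p = 7.3e-05, odds ratio 0.103). The candidates differed in the same direction, at 0.163% on X and 0.326% on the autosomes, and the ratio of odds ratios was 0.241 (95% normal interval 0.0551 to 1.05), which did not pass. Genes of the broad ncRNA class lay within 100 bp of 50 X peaks (13.9%), 7.56% of X candidates and 13.2% of autosomal peaks. The odds ratio of peaks against candidates on X was 1.98 (adjusted exact p = 5.0e-04), and it was 0.48 times that on the autosomes (95% normal interval 0.334 to 0.689, adjusted p = 4.9e-04). The B box of RNA polymerase III promoters, GTTCGANNC, was found at 2 X peaks (0.557%) and 30 autosomal peaks (2.21%), which did not pass (adjusted exact p = 0.0709).

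Other words were found at smaller groups of X peaks, and 141 of the 359 held any of the fixed words that passed against the X candidates. The E-box core, the CT repeat and CGCCAGC were fixed because earlier results of these data had shown them. Their p-values here describe the same peaks and are not independent support. The E-box core CACGTG was found at 30 X peaks (8.36%), 2.73% of X candidates and 9.41% of autosomal peaks. Its odds ratio was 3.25 against the X candidates (adjusted exact p = 1.4e-06) and 0.878 against the autosomal peaks (adjusted exact p = 0.634; 95% normal interval of the ratio of odds ratios 0.627 to 1.57). The CT repeat CTCTCTC was found at 33 X peaks (9.19% against 3.36% and 11.2%), and CGCCAGC at 11 (3.06% against 0.513% and 3.75%). No X peak held both an E-box core and a MEX core word. Against the strongest lower-ranked X candidates none of these 3 words passed. The GATA word GATAAG was found at 3.62% of X peaks, 4.9% of X candidates and 6.47% of autosomal peaks, and passed against neither.

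The word GAGACGC and the words ACGCAGA and also CTGCGTC, which overlap it and were found at 13.8% of autosomal peaks as a group, were rarer on X. All of them were known from earlier results of these data, in which most peaks are autosomal. Their p-values are therefore not independent support for a lower share on X. The group was found at 27 X peaks (7.52%) and 2.78% of X candidates. GAGACGC alone was at 4.46% of X peaks and 10.5% of autosomal peaks (adjusted exact p = 5.9e-04, odds ratio 0.397). The candidates differed in the same direction, and the ratio of odds ratios was 0.735 (95% normal interval 0.406 to 1.33), which did not pass. With replicate 4's top list alone, ACGCAGA and CTGCGTC no longer passed against the autosomal peaks (adjusted exact p = 0.244 and 0.0555). The CA repeat CACACAC was found at 35 X peaks (9.75%), 2.68% of X candidates and 4.78% of autosomal peaks. Its odds ratio against the autosomal peaks, 2.15 (adjusted exact p = 0.00169), fell to 1.57 with replicate 4's top list alone (adjusted exact p = 0.209). It also did not pass under the stricter threshold (1.84, adjusted exact p = 0.0735) or in windows of 25 bp on each side (2.07, adjusted exact p = 0.0522), and the ratio of odds ratios, 1.74, did not pass either.

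Windows that hold these words are shown for 5 X peaks, to set them beside the strongest sites. Capitals mark the second X word and those of the 14 fixed words that passed against the X candidates, not the further words from the test of all words of 7 bases. The windows are at chrX:6743976-6744076, chrX:6092110-6092210, chrX:1454556-1454656, chrX:1345003-1345103 and chrX:7823211-7823311 on the plus strand of ce11.
mdl-1 peak: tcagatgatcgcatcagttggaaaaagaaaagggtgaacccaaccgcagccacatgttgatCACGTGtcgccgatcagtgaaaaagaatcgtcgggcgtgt
hsp-3 peak: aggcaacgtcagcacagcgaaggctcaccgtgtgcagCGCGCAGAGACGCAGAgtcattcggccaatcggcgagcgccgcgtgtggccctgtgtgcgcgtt
cebp-1 peak: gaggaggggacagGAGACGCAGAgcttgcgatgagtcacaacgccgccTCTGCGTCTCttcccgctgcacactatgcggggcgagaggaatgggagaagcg
ins-39 peak: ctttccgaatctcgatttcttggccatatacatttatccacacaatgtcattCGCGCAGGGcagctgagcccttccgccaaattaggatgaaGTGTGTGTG
eef-1A.2 peak: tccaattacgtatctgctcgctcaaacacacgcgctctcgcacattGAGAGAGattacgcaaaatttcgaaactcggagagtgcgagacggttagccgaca

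A pair of X-linked bHLH genes had the most X peaks around them. The 5′ end of mdl-1, which encodes a Mad-like protein, was the nearest to 8 X peaks, of which 3 held CACGTG. That of mxl-3, which encodes a Max-like protein, was the nearest to 6, of which 2 held it. The strongest mdl-1 peak, 1675 bp downstream of the 5′ end, had 385 pooled, 231 in replicate 3 and 156 in replicate 4, and its window holds CACGTG. Another lay 98 bp upstream of mdl-1 and had 199 pooled, 133 in replicate 3 and 60.9 in replicate 4. The strongest mxl-3 peak, 5737 bp upstream, had 251, 146 and 102, and the peak 2874 bp upstream, with CACGTG, had 238, 161 and 75.7. The next genes were H18N23.2, nhr-14, a nuclear hormone receptor gene, and osm-11, which encodes a secreted Notch co-ligand, each nearest to 4 X peaks. As host genes, abts-4, a bicarbonate transporter gene, held 4 X peaks within its bounds, and unk-1 and H18N23.2 held 3 each. Some of these peaks share an interval, and with it the replicate values, and are not independent sites.

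Strong peaks just below the top 20 sat nearer to promoters than the top 20 did, and so did the peaks of lower rank. The peak near C30E1.4, at rank 21, had 430 pooled, 277 in replicate 3 and 168 in replicate 4. The epn-1 peak, 444 bp upstream of the gene for the endocytic protein epsin, had 424, 277 and 148, and the serp-1.1 peak, 293 bp upstream, had 421, 266 and 153. The peak 282 bp upstream of puf-9, which encodes a Pumilio-family RNA-binding protein, had 376, 241 and 135. Ranks 21 to 50 held 15 of 30 peaks in promoter windows, against 3 of the 20 strongest, and their mean GC content was 53.8%, against 43.8% in the 20 strongest. Over all X peaks mean GC content was 45.9% ± 9.27 (SD over 359 windows), against 40.9% at X candidates (permutation test, p = 1.0e-05, the smallest these permutations can give) and 46.1% at autosomal peaks (p = 0.666).

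The 20 strongest peaks not yet described had a varied neighbourhood. The peak near fbxb-58, an F-box gene, lay 1010 bp upstream and had 634 pooled, 449 in replicate 3 and 181 in replicate 4. The ftt-2 peak, 517 bp upstream of a gene for a 14-3-3 protein, had 612, 372 and 244 and held none of the words in its window. The ins-39 peak, 632 bp upstream of an insulin-like peptide gene, had 537, 377 and 168. Peaks near F55G7.5, F22H10.2, gtr-1, T27A8.7, F43E12.1, T24D8.6 and F56C3.1 had pooled signals from 470 to 701, 287 to 438 in replicate 3 and 183 to 264 in replicate 4. Of these 7, 4 held a MEX core word, those near F55G7.5, F22H10.2, gtr-1 and T24D8.6, and all 7 were intergenic.

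In promoter windows, 164 of 2731 X-linked protein-coding genes (6.01%) had an X peak, and gene groups are read against that share. Of 27 X-linked nuclear hormone receptor genes, 5 had one (18.5%): nhr-35, nhr-1, nhr-17, nhr-48 and nhr-14. The nhr-35 peak had 210 pooled, 142 in replicate 3 and 61.6 in replicate 4, and the nhr-17 peak 112, 41.6 and 76.7, so that one was higher in replicate 3 and the other in replicate 4. Of 9 bHLH genes, 2 did, mdl-1 and mxl-3, and of 5 chaperone genes 2 did, hsp-3 and dnj-14, the latter with 140, 90.1 and 52.6. Among 30 cuticle collagen genes 3 had a peak, col-184, col-181 and col-178, and among 19 trafficking genes 2 had one, rme-4 and sec-3. No list was tested, and counts this small cannot set a list apart from the background.

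Other small groups held single peaks. Of 6 genes of sex determination and dosage compensation on X, sdc-2 had a peak 417 bp upstream, with 154 pooled, 112 in replicate 3 and 43.3 in replicate 4. It held the CT repeat and no MEX core word. Single peaks also lay at vha-12, a subunit of the vacuolar proton pump, at the ribosomal protein gene rpl-11.2, at the yolk protein gene vit-2 and at the neuropeptide gene nlp-76. Of 36 neuropeptide and insulin genes, 2 had a peak (5.56%), and of 18 F-box, MATH and BTB genes 1 did. Windows of 7 of 74 microRNA genes (9.46%) held an X peak. Of these, cel-mir-54, cel-mir-55, cel-mir-55b and cel-mir-56 share the peak with 292 pooled, 208 in replicate 3 and 83.8 in replicate 4. X peaks were found at 0 of 26 homeobox genes, 0 of 25 ligand-gated channel genes, 0 of 20 potassium channel genes and 0 of 33 chemoreceptor genes.

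X peaks were spread along the chromosome. With X divided into 5 parts of equal length, these held 63, 68, 65, 83 and 80 of them from left to right, and the outer pair held 39.8% against 39% of X candidates (odds ratio 1.04, Fisher's exact p = 0.778). Counts per Mb ran from 10 to 28 with a median of 21. X held 20.3 peaks per Mb and the autosomes 16.5. By share of candidates kept in the optimal list, X kept 359 of 4646 (7.73%) and the autosomes 1360 of 23145 (5.88%), so that X held 20.9% of the peaks and 16.4% of the candidates below it (Fisher's exact p = 3.4e-06, odds ratio 1.34). The 20 strongest peaks lay in all 5 parts, with 6, 3, 3, 5 and 3 of them.

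At the tRNA limit, the X peaks nearest to a tRNA gene lay 143, 220 and 226 bp from it, with signals of 92.5, 797 and 93.1. The excluded X peaks farthest from a tRNA gene lay 99, 93 and 90 bp from it, with signals of 329, 134 and 99.9. Of the 359 X peaks, 5 lay within 1000 bp of a tRNA gene. Sequence found elsewhere in the genome, judged by words of 31 bases, was in 13 X windows (3.62%), 4.83% of X candidates and 6.62% of autosomal peaks (against X candidates, Fisher's exact p = 0.365). A summit within 500 bp after a gene's end was found for 35 X peaks (9.75%) and 8.33% of X candidates (odds ratio 1.19, Fisher's exact p = 0.373). Intervals with several summits held 13 X peaks (3.62%) and 24 autosomal peaks (1.76%), an odds ratio of 2.09 (Fisher's exact p = 0.0399) that did not pass with either replicate's top list alone.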

How the data were processed

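Peak lists of ZTF-26-GFP chromatin immunoprecipitation were deposited for biological replicates 3 and 4, for both pooled, and as an optimal list of reproducible peaks. Signal and −log10 q-value per peak are the authors' values as deposited; the scale of the signal, the peak caller, the aligner and the thresholds are not given in the sources used here, and read depth is unknown, so no counting error of a signal can be given. The −log10 q-value was used for no result. Replicate signal was taken from the strongest candidate that overlaps the peak.

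Summits of the ce11 lists were joined to genes of the Ensembl annotation, release 115, and to the reference sequence with Python 3.11.15, numpy 2.4.6, pandas 2.3.3, numba 0.67.0 and scipy 1.17.1. Words were read on both strands in windows of 50 bp on each side of the summit. Shares were compared with two-sided Fisher's exact tests, adjusted by Benjamini and Hochberg's method within each family at 0.05, and all words of 7 bases in at least 20 windows were tested. Medians and means were compared with 100000 permutations of set labels. Intervals are exact (Clopper-Pearson) at 95%. On simulated data, a word planted in 5% of windows was called in 100% of 20 simulations with a mean of 0.1 unrelated words, and a distance test with no difference was called in 5.5%.

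The peaks, words and gene lists were chosen with earlier results of these data known. Named in the text are the 25 strongest X peaks, up to 4 of the strongest for each gene list and word, and genes near or around 3 or more X peaks. Alternatives were each replicate's own strongest peaks, a stricter threshold on pooled signal, other tRNA distances, other windows, 1 summit per interval, and the 359 strongest lower-ranked candidates.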

Additional observations from a re-analysis of the deposited data

Results flagged for a closer look

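The excess of CGCAGGG at peaks over candidates differed between X and the autosomes, with an odds ratio on X 4.61 times the autosomal one. For GCGCAGG the same ratio was 3.28. Both words overlap and share most of their peaks, so these are not independent results. For summits within 100 bp of an ncRNA gene the ratio was 0.48: such summits made up 13.9% of peaks and 7.56% of candidates on X, against 13.2% and 3.53% on the autosomes. The causes of these differences were not tested.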

How the results depend on the processing

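On the results that answer a comparison, 94 alternatives kept the direction and the side of the threshold or stayed close to the value, while 14 moved the value, 6 turned its direction, 6 lost a call and 3 gained one. That tally leaves out the further results, among them those on single words and single features. For these, 174 alternatives stayed the same by that rule, 29 moved the value and 19 lost a call. Against the 359 strongest lower-ranked X candidates, the promoter odds ratio was 1.0, the difference in median distance turned to 85 bp farther, 3 features and 3 fixed words passed, the odds ratio for repeated sequence turned to 1.19, and 0 words of 7 bases passed. With 1 replicate's own top list, the promoter ratio of X to the autosomes ran from 0.755 to 0.955, the distance difference from -458 to -170 bp, the odds ratio after gene ends from 1.09 to 1.46, and that for several summits from 0 to 1.37. The words of 7 bases ran from 53 to 127 against the candidates and from 6 to 8 against the autosomal peaks. Under the stricter threshold the distance difference was -196 bp, 2 features passed, the odds ratio after gene ends turned to 0.94, that for several summits was 1.83, that for both replicates' top lists turned to 1.45, and 4 words passed against the autosomal peaks. With a promoter window from 2000 bp upstream the promoter ratio was 0.754 and passed the threshold. Without the tRNA rule the distance difference was -128 bp and 188 words of 7 bases passed. Windows of 25 bp on each side gave 11 words against the candidates and 0 against the autosomal peaks, and windows of 100 bp gave 209 against the candidates and turned the GC difference from the autosomal peaks to 0.561 percentage points higher on X. With 1 summit per interval, 5 words passed against the autosomal peaks. Without peaks that hold a MEX core word, chosen after seeing the data, 0 words did, but the second X word then had too few windows to be tested. The causes were not tested. No paired analysis was possible because both replicates form 1 group. With 2 replicates of 1 line and no read counts, differences between cultures cannot be measured.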
